A study of Homo sapiens with 3 samples.

Results

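The 10 genes described here are outputs or feedback inhibitors of ERK signalling, and they were measured in breast cancer cells given a hairpin RNA against RRAS2. They are DUSP4 (ENSG00000120875), DUSP5 (ENSG00000138166), DUSP6 (ENSG00000139318), SPRY2 (ENSG00000136158), SPRY4 (ENSG00000187678), SPRED1 (ENSG00000166068), SPRED2 (ENSG00000198369), ETV4 (ENSG00000175832), ETV5 (ENSG00000244405) and PHLDA1 (ENSG00000139289). The genes were taken by identifier as known ERK outputs and feedback inhibitors, and all 10 were found among the 24916 genes measured. The deposited table gives Ensembl identifiers alone, so each symbol is the one the selection list pairs with its identifier. Total RNA came from MDA-MB-231-Luc, a derivative of an established human triple-negative breast cancer line. RRAS2 encodes a small GTPase of the RAS family, and the cells were 1 pool that had received a lentiviral short hairpin RNA against it and was in exponential growth. The 3 Affymetrix arrays are labelled biological replicates 1 to 3 of this RRAS2-deficient pool. The labels do not say whether they came from separate cultures, so the spread between them may be partly technical. Cells with a control hairpin are named in the study design, but their arrays were not analysed here. All values below therefore describe the knockdown cells, with no comparison between conditions and no test, and with 1 hairpin and 1 pool behind them.

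ERK is the last kinase of a cascade that runs from growth factor receptors through RAS, RAF and MEK. Active ERK induces a set of genes, and many of their products act back on the cascade. The transcripts of this set are a widely used readout of pathway output. DUSP proteins of this group remove phosphate from ERK, Sprouty and SPRED proteins act further up at the level of receptors, RAS and RAF, and the ETS factors ETV4 and ETV5 carry the signal on into transcription. In tumour lines with an active cascade many of these genes are commonly high and drop quickly when MEK is blocked. ERK activity itself was not measured in the data used here.

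All 10 genes gave bright signals in RRAS2-deficient cells. Each lay above the 75th percentile of its array on all 3 arrays, as did 23.9% of all genes measured. All 10 also lay above the array median on all 3 arrays, a limit that 48.6% of all genes passed. The percentile given here is the share of all genes on an array with a lower signal, and it ran over the 10 genes from 82.0 to 95.8 in replicate 1, from 81.9 to 96.0 in replicate 2 and from 79.1 to 95.5 in replicate 3. The median of each array was 6.80 to 6.84 and its 75th percentile 9.04 to 9.05 on the log2 scale. In order of mean percentile the signals ran from DUSP5 at 95.7 to ETV4 at 81.6. For 6 of the 9 neighbouring pairs in that order the ranges of percentile over the arrays overlapped. Such an overlap compares different arrays, and on each single array DUSP5, ETV5, SPRY4 and DUSP4 kept this order. Signals depend on each gene's own probes, so this is an order of signals and not of transcript amounts. Fewer expressing cells and less RNA per cell cannot be told apart in such bulk measurements.

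The 3 phosphatases were all bright and differed in how far they varied. DUSP4, a nuclear phosphatase of ERK and related kinases, had log2 levels of 11.10 in replicate 1, 11.19 in replicate 2 and 10.71 in replicate 3, with a mean of 11.00 ± 0.26 (SD, n = 3). Its lowest array stood well apart from the other two. DUSP6, the cytoplasmic phosphatase specific for ERK, was at 11.03, 11.00 and 10.71 in replicates 1, 2 and 3 (mean 10.91 ± 0.17, SD, n = 3). Here too replicate 3 was below a close pair. DUSP5, a nuclear phosphatase specific for ERK, was at 11.50, 11.56 and 11.44 in the same order (mean 11.50 ± 0.060, SD, n = 3). Its whole range of 0.12 log2 units, or 1.09-fold, was close to the largest difference between replicates 1 and 2 in any of the 10 genes, also 0.12.

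Among the Sprouty genes, which encode inhibitors of receptor tyrosine kinase signalling, SPRY4 varied most. SPRY4 was at 11.29, 11.41 and 10.97 in replicates 1, 2 and 3 (mean 11.22 ± 0.23, SD, n = 3). SPRY2 was at 10.30, 10.33 and 10.43 (mean 10.36 ± 0.068, SD, n = 3). The array that was lowest for SPRY4 was thus the highest for SPRY2.

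The SPRED genes, whose products bind the RAS GTPase-activating protein neurofibromin and bring it to the membrane, varied little. SPRED1 was at 9.68, 9.67 and 9.79 in replicates 1, 2 and 3 (mean 9.72 ± 0.067, SD, n = 3). SPRED2 was at 10.59, 10.57 and 10.53 (mean 10.56 ± 0.032, SD, n = 3). With a range of 0.064 log2 units, SPRED2 varied least of the 10 genes, and 11.6% of all genes had a smaller range.

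Both ETS factors of the PEA3 subfamily were lowest in replicate 3. ETV4 was at 9.71, 9.83 and 9.43 in replicates 1, 2 and 3 (mean 9.66 ± 0.21, SD, n = 3). ETV5 was at 11.44, 11.51 and 11.24 (mean 11.40 ± 0.14, SD, n = 3). PHLDA1, a pleckstrin homology-like protein induced by growth factors, was at 10.93, 10.97 and 10.80 (mean 10.90 ± 0.091, SD, n = 3). It shared the low array with the ETS factors, by a smaller margin.

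**Figure D1:**
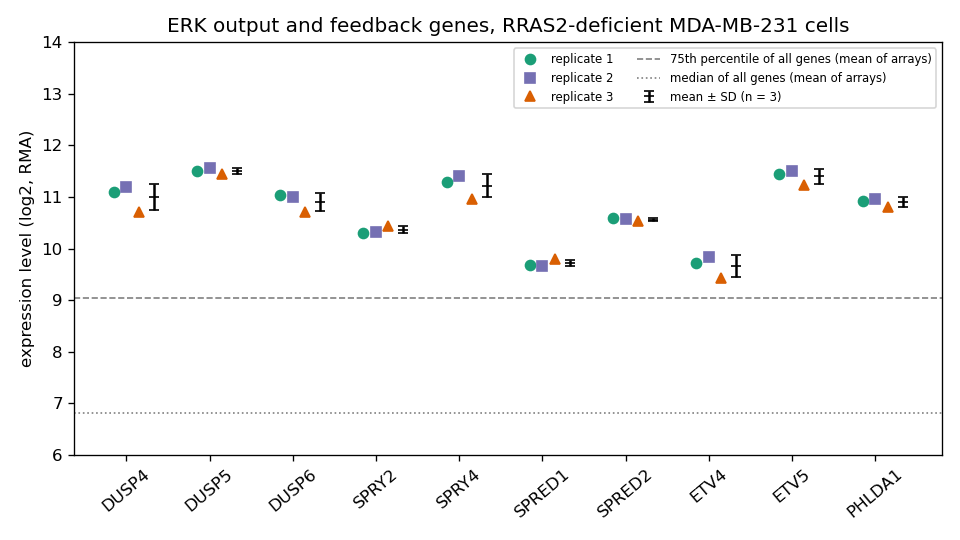
Log2 expression level of the 10 genes (y axis) by gene (x axis); symbols are the 3 arrays of RRAS2-deficient cells, bars the mean ± SD (n = 3), and horizontal lines the median and the 75th percentile of all genes, averaged over the arrays. All 30 points lie above the upper line, and replicate 3 is the lowest point for 8 of the 10 genes.

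The larger differences between arrays in these genes involved replicate 3. Replicates 1 and 2 differed by at most 0.12 log2 units in any of the 10 genes. The median absolute difference over the 10 genes was 0.051 between replicates 2 and 1, 0.164 between replicates 3 and 1, and 0.222 between replicates 3 and 2. Over all 24916 genes it was 0.084, 0.102 and 0.111 for the same pairs. For genes of like level, meaning the 3504 genes with a mean between those of ETV4 and DUSP5 (9.66 to 11.50), it was 0.068, 0.098 and 0.130. The median of the 10 genes was thus below that of other genes for the first pair of arrays and above it for both pairs that hold replicate 3. Replicate 3 was also the array that stood apart for bright genes in general. It was farthest from the middle value for 9 of the 10 genes, for 41.7% of all genes and for 53.2% of the genes of like level.

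Of the 10 genes, 8 were lowest in replicate 3, as were 37.9% of all genes and 37.2% of those of like level. The exceptions were SPRY2 and SPRED1, which were highest there. A further count covers the 6 genes DUSP4, DUSP5, SPRY4, ETV4, ETV5 and PHLDA1. They were highest in replicate 2 and lowest in replicate 3, an order found in 20.7% of all genes and 26.3% of those of like level. These genes were read on the same 3 arrays, so the counts describe 1 RNA sample against 2 others and are not separate observations. The 6 genes are part of the 8, and both counts were chosen after seeing the data. The cause of the difference was not tested.

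**Figure D2:**
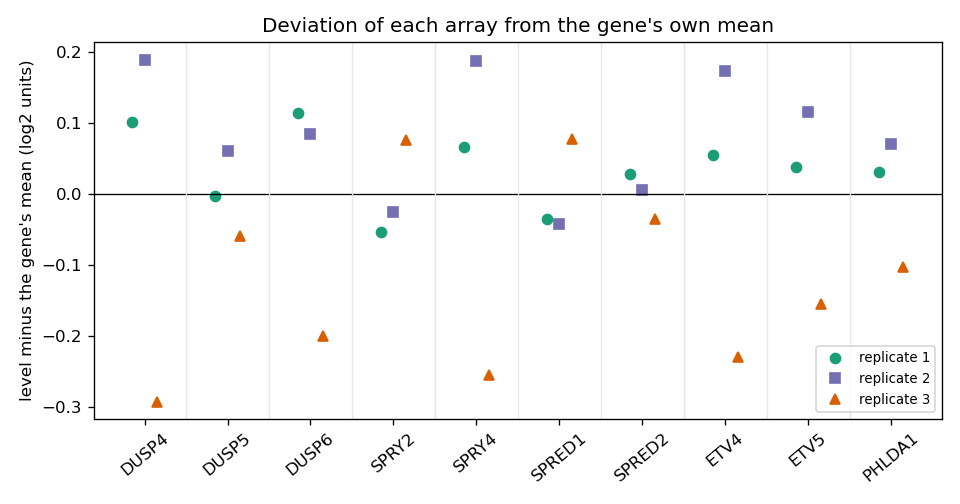
Log2 level of each array minus the gene's own mean (y axis) for the 10 genes (x axis); symbols are the 3 arrays. Replicate 3 lies lowest for 8 genes, down to -0.292 for DUSP4, and highest for SPRY2 and SPRED1, at 0.077 and 0.078.

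The size of the replicate 3 difference placed 4 of the genes outside, and 6 inside, the span that held most genes of like level. Set against the mean of replicates 1 and 2, replicate 3 differed by -0.44 log2 units for DUSP4, which is 73.8% of the level in the other two arrays. The difference was -0.38 for SPRY4 (76.8%), -0.34 for ETV4 (78.8%) and -0.30 for DUSP6 (81.3%). Among genes of like level the middle 90% of such differences lay between -0.27 and 0.25, and their median was 0.016. These 4 genes therefore lay outside that span on the low side. The replicate 3 difference was chosen after seeing the data, so the shares given here describe positions and are not a test. Lower differences than that of DUSP4 were found for 37 of the 3504 genes (1.06%), and lower ones than that of SPRY4 for 63 (1.80%). For ETV4 the number was 86 (2.45%) and for DUSP6 it was 129 (3.68%).

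The other 6 genes lay inside the span. ETV5 differed by -0.23 log2 units (85.2% of the other two arrays), with 7.88% of genes of like level lower. PHLDA1 differed by -0.15, DUSP5 by -0.09 and SPRED2 by -0.05. SPRY2 and SPRED1 were each 0.12 higher in replicate 3, which is 108% of the other arrays, and 74.2% and 74.3% of genes of like level had lower differences. The median difference over the 10 genes was -0.19, against -0.007 over all genes.

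**Figure D3:**
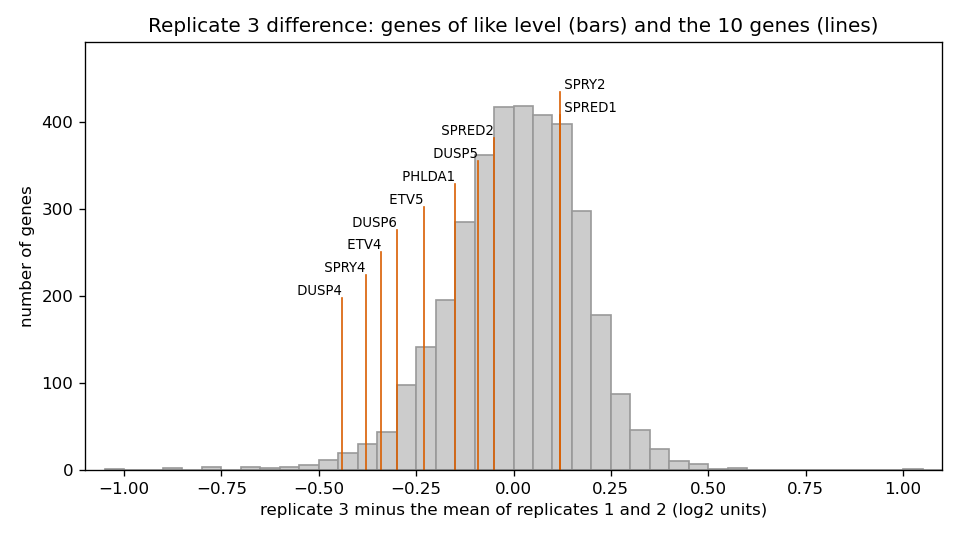
Replicate 3 minus the mean of replicates 1 and 2 in log2 units (x axis); bars count the 3504 genes of like level (y axis) and lines mark the 10 genes, with line heights set only to keep the names apart. DUSP4, SPRY4, ETV4 and DUSP6 stand between -0.44 and -0.30, in the lower tail of the bars, and SPRY2 and SPRED1 at 0.12.

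By total spread over the arrays, ETV5 joined the 4 genes named first. The highest array exceeded the lowest by more than 0.25 log2 units for 5 of the 10 genes, as for 25.9% of all genes and 21.0% of those of like level. These were DUSP4 at 0.483 (1.40-fold), SPRY4 at 0.442 (1.36-fold), ETV4 at 0.403 (1.32-fold), DUSP6 at 0.313 (1.24-fold) and ETV5 at 0.270 (1.21-fold). Replicate 3 was the lowest array of each. PHLDA1 had a range of 0.174, and DUSP5, SPRY2, SPRED1 and SPRED2 had ranges of 0.130 or less. The median range was 0.222 over the 10 genes and 0.164 over all genes, and the median SD was 0.115 and 0.086. A range above the median of all genes was found for 6 of the 10. The median splits all genes evenly, so this count is near the share of all genes. With replicate 3 left out the count was 3, and with replicate 1 or replicate 2 left out it was 8. It thus depended on which arrays were used.

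**Figure D4:**
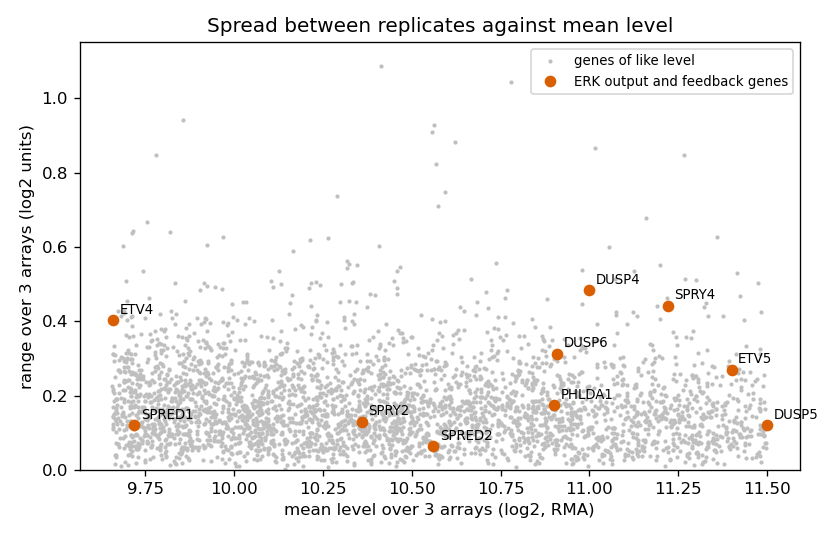
Range over the 3 arrays in log2 units (y axis) against the mean log2 level (x axis); grey points are the genes of like level and orange points the 10 genes. DUSP4 and SPRY4, at 0.483 and 0.442, lie above most grey points of their level, whereas SPRED2, at 0.064, lies near the bottom.

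Promoter sequences were looked up for genes that were lower and genes that were higher in replicate 3. RefSeq windows of GRCh38.p14, from 250 bases before to 50 bases after a transcript start, were matched by symbol for 6 of the 10 genes, in 9 windows. The 4 genes with a single window are printed 5′ to 3′ on the strand of the gene. DUSP6, SPRY4 and PHLDA1 were lower in replicate 3, and SPRED1 was higher. The differences of PHLDA1 and SPRED1 lay inside the span that held most genes of like level. SPRY2, also higher in replicate 3, and SPRED2, slightly lower there, had more than 1 window and are not printed. Capitals mark matches, on either strand, to the letters CGGAAG (an ETS site), TGANTCA (AP-1), TGACG (the half-site of cyclic AMP response elements), GGGCGG (a GC box) and the CArG box of serum response factor. ETS factors, AP-1 and serum response factor are transcription factors that ERK signalling is known to activate. The windows are chr12:89352452-89352751 (minus strand) for DUSP6, chr5:142324198-142324497 (minus strand) for SPRY4, chr12:76031727-76032026 (minus strand) for PHLDA1 and chr15:38252586-38252885 (plus strand) for SPRED1.
DUSP6: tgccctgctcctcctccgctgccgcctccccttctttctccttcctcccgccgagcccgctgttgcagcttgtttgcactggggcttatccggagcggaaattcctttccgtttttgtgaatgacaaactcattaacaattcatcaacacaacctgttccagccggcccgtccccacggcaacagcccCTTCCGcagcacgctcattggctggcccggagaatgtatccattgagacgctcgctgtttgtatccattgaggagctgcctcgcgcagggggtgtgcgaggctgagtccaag
SPRY4: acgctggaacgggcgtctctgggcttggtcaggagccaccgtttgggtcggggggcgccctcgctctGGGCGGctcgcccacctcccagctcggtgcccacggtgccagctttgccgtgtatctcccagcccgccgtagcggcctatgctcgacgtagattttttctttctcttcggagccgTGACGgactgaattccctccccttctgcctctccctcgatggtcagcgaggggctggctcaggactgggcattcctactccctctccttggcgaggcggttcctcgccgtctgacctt
PHLDA1: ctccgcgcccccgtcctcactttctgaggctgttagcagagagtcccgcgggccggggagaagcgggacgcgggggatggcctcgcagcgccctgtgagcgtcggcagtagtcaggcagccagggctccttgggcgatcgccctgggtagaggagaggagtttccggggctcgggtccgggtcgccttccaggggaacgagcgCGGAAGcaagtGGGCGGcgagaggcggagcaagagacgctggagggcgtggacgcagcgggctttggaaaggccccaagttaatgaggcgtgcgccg
SPRED1: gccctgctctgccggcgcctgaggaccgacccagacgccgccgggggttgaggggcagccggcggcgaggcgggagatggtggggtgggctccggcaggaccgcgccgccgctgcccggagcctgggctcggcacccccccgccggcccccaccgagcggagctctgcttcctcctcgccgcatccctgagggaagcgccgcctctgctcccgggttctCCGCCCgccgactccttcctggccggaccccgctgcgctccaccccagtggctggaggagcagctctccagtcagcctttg

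The ETS letters were found in the windows of DUSP6 and PHLDA1. In DUSP6 they begin 62 bases before the start, on the opposite strand, and in PHLDA1 they begin 47 bases before it. Of the 9 windows of these genes 3 held them (DUSP6, PHLDA1 and 1 of SPRED2), as did 19.5% of the 35116 windows in the table. SPRY4 held the half-site TGACG 68 bases before its start. Of the 9 windows 3 held it (SPRY4, 1 of SPRY2 and 1 of SPRED2), against 24.6% of all windows. A GC box lay 183 bases before the start of SPRY4, 36 before that of PHLDA1 and 31 before that of SPRED1, where it is on the opposite strand. It was in 6 of the 9 windows, which include windows of SPRY2 and SPRED2, and in 45.0% of all. The AP-1 letters were in 1 of the 9 windows, of SPRED2, and in 7.71% of all, and the CArG box was in 0 of the 9 and in 1.29% of all. No match overlapped another in the 4 printed windows. The 4 windows had a GC content of 58.3% (DUSP6), 65.0% (SPRY4), 69.3% (PHLDA1) and 76.3% (SPRED1), against a median of 58.7% over all windows. Among the 4 printed windows the GC box was absent only from DUSP6, and the ETS letters were absent from SPRY4 and SPRED1. Any link between these letters and the replicate 3 difference was not tested. A match describes these letters only and is not a measured binding site.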

How the data were processed

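Per the labels' protocols, Trizol was used to extract total RNA of 3 RRAS2-deficient samples, which was biotin-labelled for Affymetrix arrays. The authors deposited 1 value per gene and array, made with RMA and the affy package per the submitters' processing notes. What was not given in the sources used here is the array model, the genome build and the definition that assigns probes. The deposited values, 3.10 to 14.34, were read as log2, the scale of RMA output, which the table does not name. RMA pulls arrays to a common distribution, so a change in total RNA cannot be seen.

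The 10 genes, thresholds and lists were chosen with earlier results of these data known. All 10 genes are named. Other planned lists (further feedback, output and cascade genes, RRAS2 itself and cell type markers) need symbols. The reference table held 59792 genes and Ensembl identifiers for 0 of them, so the knockdown and the cell type were not checked. Mean, SD, range, percentile and the replicate 3 difference were computed per gene over all genes, and the code was tested on simulated data. No test was made, since the samples form 1 group, and the number of arrays limits the precision. No gene was named for likeness, because replicates of 1 condition hold no pattern across conditions. Alternatives were quantile, median-centred and cyclic loess values, other limits, and leaving out each replicate. Python 3.11.15, numpy 2.4.6, pandas 2.3.3, matplotlib 3.10.9, R 4.3.3 and limma 3.58.1 were used.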

Additional observations from a re-analysis of the deposited data

How the results depend on the processing

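The levels of the 10 genes changed little under the other normalisations. Under quantile normalisation, centring of the arrays on their medians and cyclic loess, all 30 gene levels stayed within 1 SD of the deposited ones. RMA had already pulled the arrays to a common distribution. These 3 settings could therefore change little, and they are a weak check of the levels and of the replicate 3 results below. Leaving out 1 of 3 arrays cannot move a mean by as much as 1 SD, so it is no check of the levels. The count of genes above the array limit was 10 in each of the alternatives run. The replicate 3 difference and the count of genes lowest in replicate 3 were not planned. Nor was the count of genes also highest in replicate 2. All were chosen after seeing the data. The count of genes lowest in replicate 3 was 8 as deposited and under each of the 3 normalisations. The replicate 3 difference of a gene shifted by at most 0.021 log2 units with no change of sign. Replicate 3 was the farthest array for 9 genes as deposited and for 9 to 10 under those settings. The count with a range above the median of all genes was 6 as deposited and 6 against the 250 genes nearest in mean level. Leaving out replicate 3 lowered it to 3, and leaving out replicate 1 or replicate 2 gave 8. A range over 2 arrays uses the difference of that pair alone. On each array alone, 8 of the 10 genes kept their place in the order of percentiles. Percentiles over protein-coding genes were not run, since no table paired the identifiers with gene types. No paired analysis was possible because there is 1 group of arrays. The values hold no background signal, so what the signal over background limits was not assessed.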
